A study of Mus musculus with 1012 samples.

Results

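Snai1, Snai2, Twist1, Twist2, Zeb1, Zeb2 and Prrx1, 7 transcription factor genes known from mesenchymal cells, were followed across 1012 single-cell libraries of mouse cells. The genes were taken by name from a table of 30452 features by a rule that uses no measured value, although earlier results of these data were known when they were chosen. The libraries were made either from cytoplasm drawn out of a living cell through a hollow cantilever tip (Live-seq, 296 libraries) or from whole lysed cells (scRNA-seq, the largest set). A further 162 whole-cell libraries came from a test of what sampling does to a cell (post-Live-seq).

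The cells were of 3 kinds. IBA is an immortalized brown preadipocyte line, started from the interscapular brown fat of young male C57BL6/J mice and grown here without induction. ASPCs are primary adipose stem and progenitor cells from the subcutaneous fat of female C57BL/6J mice, used before induction (ASPC_Pre) and after 2 days with dexamethasone, IBMX, insulin and rosiglitazone (ASPC_Post). Some of the Live-seq ASPCs carried a lentiviral barcode with GFP. RAW cells are a mouse macrophage line, untreated (RAW_Mock) or given lipopolysaccharide, a bacterial wall component (RAW_LPS), for which the sources state different doses. They were the RAW-G9 subline, a single clone with mCherry driven by the Tnf promoter and an EGFP-Rela fusion. Only Live-seq batch 5Reseq held the wild-type line instead. The IBA cells of the sampling test were lysed 1 h or 4 h after Live-seq (IBA_1h, IBA_4h) or had not been sampled (IBA_0h), all in batch 8_1. The labels name 3 scRNA-seq batches (8_8, 9_1 and one named scRNA) and 5 Live-seq batches (5Reseq, 6, 7, 8_8 and 9_4), and only 8_8 holds both techniques. Nothing says that batches were separate animals or thawed cultures, so that p-values measure the spread between batches as labelled.

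The SNAIL factors (Snai1, Snai2) and the ZEB factors (Zeb1, Zeb2) are zinc-finger proteins that bind the E-box, a short DNA motif, and mostly repress. They are best known for silencing epithelial genes such as Cdh1 (E-cadherin) when epithelial cells turn mesenchymal. TWIST factors (Twist1, Twist2) are basic helix-loop-helix proteins that pair with E proteins, bind E-boxes and hold mesenchymal progenitors in an undifferentiated state. Prrx1 is a paired-type homeobox factor of limb and connective tissue mesenchyme. Zeb2 has a second known role in blood, where it maintains the identity of tissue macrophages.

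A library held between 38451 and 2671609 counts, and the median was 506778 for Live-seq libraries, 467677 for scRNA-seq ones and 506266 for post-Live-seq ones. Markers matched the labelled kinds. In scRNA-seq, 10 mesenchymal markers (Col1a1, Col3a1, Pdgfra and others) took 1.08% of the counts of IBA and 1.37% of those of ASPC_Pre, against 0.000245% in RAW_Mock and 0.000464% in RAW_LPS. The 10 macrophage markers took 1.02% and 0.877% in RAW_Mock and RAW_LPS, 0.0284% in IBA and 0.00545% in ASPC_Pre. Whole IBA cells differed between batches here: their macrophage marker share ran from 0.000807% to 0.0607% and their mesenchymal one from 0.507% to 1.42%. Thy1, a defining stromal marker, had 2 counts in whole IBA cells and none in Live-seq IBA cells.

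On GRCm38 the genes lie far apart, apart from sharing chromosomes. Snai1 (ENSMUSG00000042821) is at chr2:167538195-167542814 and Zeb2 (ENSMUSG00000026872) at chr2:44983632-45117395 on the minus strand. Twist2 (ENSMUSG00000007805) is at chr1:91801461-91848028 and Prrx1 (ENSMUSG00000026586) at chr1:163245119-163313710 on the minus strand. Snai2 (ENSMUSG00000022676) is at chr16:14705852-14709385, Twist1 (ENSMUSG00000035799) at chr12:33957671-33959829 and Zeb1 (ENSMUSG00000024238) at chr18:5591860-5775467. Their summed exons differ widely, from 1621 bases for Snai1 and 1628 for Twist1 to 11066 for Prrx1 and 19942 for Zeb2. Snai1, Snai2 and Twist1 overlap no other annotated gene. Antisense genes overlap Twist2 (Gm29100), Zeb2 (Zeb2os) and Prrx1 (Gm20471), and Gm10125 and a pseudogene lie opposite Zeb1. Counting ignored strand and used the union mode, in which a read that overlaps 2 annotated genes is given to neither, so reads of a factor within such an overlap are not in its count where the authors' annotation holds the partner too.

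Cells of a batch are not replicates, so counts were summed over the cells of a state in a batch wherever at least 3 cells were present, which gave 30 sums. Levels are counts per 1000000 counts of the sum (CPM), and errors are SDs over batches. Where a group has 1 batch, the 95% interval is an exact Poisson interval, which covers counting error only, as do all intervals and floors given here, since the reads carry no molecular identifiers. A fold given as at least some value is against a floor of 3 counts. A single RAW_Mock cell could hold 19 counts of a factor (Snai1), so such a fold does not bound the number of molecules.

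Since SNAIL, ZEB and TWIST factors bind E-boxes, the promoters of the factors were searched for them, and 3 are shown: Snai1, the only one with a match, Prrx1, the member with the highest CPM in IBA and ASPC_Pre, and Zeb2, the only member at a high level in RAW cells. Each runs from 250 bases before to 50 bases after the first annotated start (RefSeq, GRCm38.p6), and capitals mark an E-box. The windows are chr2:167537945-167538244 on the plus strand (Snai1), chr1:163313601-163313900 on the minus strand (Prrx1) and chr2:45117393-45117692 on the minus strand (Zeb2, the first of 4 annotated starts).
Snai1: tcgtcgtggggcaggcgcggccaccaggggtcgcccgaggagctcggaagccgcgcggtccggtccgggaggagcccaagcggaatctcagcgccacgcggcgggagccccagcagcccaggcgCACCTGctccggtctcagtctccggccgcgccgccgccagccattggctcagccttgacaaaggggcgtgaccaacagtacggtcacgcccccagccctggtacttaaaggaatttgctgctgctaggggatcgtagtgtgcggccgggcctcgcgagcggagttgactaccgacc
Prrx1: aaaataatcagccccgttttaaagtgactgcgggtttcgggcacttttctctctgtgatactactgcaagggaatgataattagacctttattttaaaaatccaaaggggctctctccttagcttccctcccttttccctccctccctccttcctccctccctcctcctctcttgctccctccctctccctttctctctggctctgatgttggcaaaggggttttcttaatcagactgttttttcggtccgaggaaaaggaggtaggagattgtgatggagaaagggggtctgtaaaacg
Zeb2: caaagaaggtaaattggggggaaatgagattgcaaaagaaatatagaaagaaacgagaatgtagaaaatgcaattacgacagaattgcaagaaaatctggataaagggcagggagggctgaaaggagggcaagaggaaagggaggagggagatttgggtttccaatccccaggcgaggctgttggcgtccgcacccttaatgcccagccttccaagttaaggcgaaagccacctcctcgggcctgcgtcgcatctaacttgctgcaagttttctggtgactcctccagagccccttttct
The Snai1 window holds CACCTG at position -126 from the start, the form of E-box that SNAIL and ZEB factors prefer, and this is also its only CANNTG. The windows of Twist1, Twist2, Zeb2 and Prrx1 hold no CANNTG. Of 32544 promoter windows of this length, 72.3% hold CANNTG, 20.3% hold CACCTG or its reverse complement CAGGTG, and 3.87% hold CATATG, which none of the 5 holds. CANNTG reads the same on both strands and includes the other motifs. A match is a description of the letters, not of binding. Snai2 and Zeb1 promoters were not used here.

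The first comparison set the mesenchymal IBA line against the RAW_Mock macrophages in scRNA-seq. All members but Zeb2 were called higher in IBA, with ratios of pooled levels from 125.5 for Snai2 to 13931 for Prrx1. Zeb2 had a mean of 100.9 CPM in IBA and 136.4 CPM in RAW_Mock. Prrx1 had 367.1, 345.5 and 530.3 CPM in the 3 IBA sums (batches 8_8, 9_1 and scRNA, with 15, 45 and 93 cells), on 29722 counts, against 2 counts in RAW_Mock (16, 46 and 95 cells). The groups did not overlap. The ratio of pooled levels was 13931 (95% counting interval 3856 to 115036), and the fitted log2 fold change was 13.63 (SE 0.49; edgeR, adjusted p = 9.10e-07).

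The TWIST genes had no count at all in RAW_Mock. Twist2 had 103.2, 60.04 and 56.3 CPM in the IBA sums and Twist1 16.7, 6.61 and 10.5 CPM. Against a floor of 3 counts over all RAW_Mock cells, Twist2 was at least 1312-fold higher in IBA (edgeR, adjusted p = 3.03e-05) and Twist1 at least 195.6-fold higher (adjusted p = 0.00108). Twist1 was the lowest of the 7 in IBA by CPM.

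The SNAIL genes followed the same direction. Snai1 had 149.3, 180.3 and 96.8 CPM in IBA and no more than 0.554 CPM in any RAW_Mock sum, a pooled ratio of 445.7 (interval 288.4 to 730; log2 fold change 9.16, SE 0.87, edgeR adjusted p = 8.30e-05). A single RAW_Mock cell held 19 of its 20 counts there, and without that cell the ratio was 8885 (1594 to 350962). Over the alternatives the log2 fold change ran from 7.96 to 11.83. Snai2 had 49.2, 83.3 and 189.7 CPM in IBA against 0, 1.21 and 1.05 CPM in RAW_Mock. Its pooled ratio of 125.5 (98.7 to 162.1) was the smallest among the 6 members that passed (log2 fold change 6.92, SE 0.95, adjusted p = 0.000602).

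The ZEB pair split. Zeb1 had 40.03, 37.2 and 37.7 CPM in IBA, the smallest relative spread of the 7 genes, and 8 counts in RAW_Mock, all in batch 8_8. The ratio was 301.8 (152.96 to 699.9; log2 fold change 7.67, SE 1.60, adjusted p = 0.00835). A single cell held 7 of these 8 counts, the ratio without it was 2403 (430.9 to 94954), and the log2 fold change ran from 6.26 to 12.97 over the alternatives. Leaving out these cells was chosen after seeing the data. No IBA cell was left out, so the Snai1 and Zeb1 ratios could only rise. Zeb2 had 94.6, 67.03 and 141.01 CPM in IBA and 127.8, 126.1 and 155.5 CPM in RAW_Mock, ranges that overlap. Its log2 fold change was -0.42 (SE 0.33, adjusted p = 0.362), which did not pass the test.

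In this comparison 6 of 7 members were called higher and 0 lower, where a call needs an adjusted p below 0.05 and a log2 fold change beyond 1 in size. Of all 13402 genes tested, 22% were called higher and 12.1% lower. The 6 called members met the filter (at least 2 counts in 15% of the cells of a state) only in IBA or ASPC states. A call of lower was thus hardly open to them, and the shares over all genes are no like-for-like baseline. The same holds for the Live-seq comparisons with RAW_Mock. The median fitted log2 fold change of the members was 9.16, or 7.67 with the genes at 0 counts set at their floor, beside 0.21 over all genes. These 6 calls held under all 9 alternative settings, DESeq2 included.

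ASPC_Pre against RAW_Mock gave the same calls, with the same RAW_Mock sums as reference, so it is not an independent repeat. Again 6 of 7 members were called higher and 0 lower, against 27% and 13% of all genes, with the same limit from the filter. Prrx1 had 740 and 537.4 CPM in the ASPC_Pre sums (batches 8_8 and 9_1; log2 fold change 14.76, SE 0.51, adjusted p = 6.98e-07). Twist2, at 56.2 and 54.1 CPM, was at least 1163-fold higher and Twist1, at 40.4 and 13.3 CPM, at least 367.96-fold higher. Snai1 (165.6 and 73.7 CPM) and Snai2 (143.7 and 35.4 CPM) were both lower in batch 9_1 than in 8_8, and both stayed far above every RAW_Mock sum. Zeb1 went the other way, with 44.01 CPM in 8_8 and 122.6 CPM in 9_1, and its call was lost without batch 9_1. Zeb2 had 149.6 and 205.6 CPM (log2 fold change 1.02, SE 0.38, adjusted p = 0.0541), and over the alternatives its adjusted p ran from 0.0394 to 0.353, with 2 of 9 calling it.

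**Figure D1:**
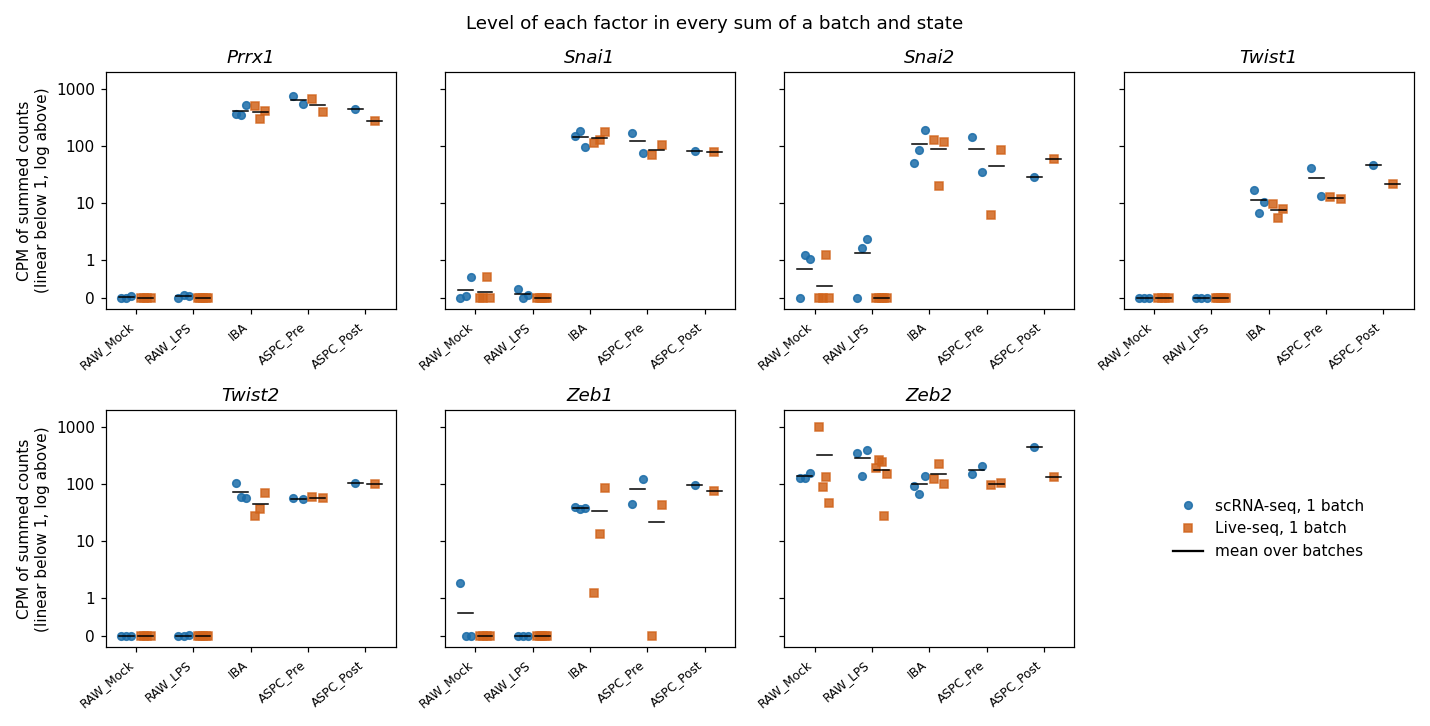
Each panel plots 1 factor, each point is the CPM of the summed counts of 1 batch and state (axis linear below 1 and logarithmic above), and short lines are means over batches. In scRNA-seq, the RAW sums lie at or near 0 and the IBA and ASPC sums above them in all panels but that of Zeb2. In Live-seq, Zeb1 was also low in IBA of batch 7 (1.24 CPM) and at 0 in ASPC_Pre of 8_8. Zeb2 runs between 67.03 and 457.9 CPM in all scRNA-seq sums.

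Between genes, levels were compared per kilobase of exon, with all annotated exons of a gene merged. The transcripts present in these cells can be shorter than that, and the order of the genes depends on the length used. Per kilobase, the scRNA-seq order in IBA was Snai1 at 87.7 ± 26.04 CPM per kb (SD, n = 3 batches), Snai2 at 53.1 ± 36.3, Prrx1 at 37.4 ± 9.13, Twist2 at 23.1 ± 8.21, Twist1 at 6.92 ± 3.12, Zeb2 at 5.06 ± 1.87 and Zeb1 at 3.73 ± 0.149. Prrx1, first by CPM, was thus below both SNAIL genes per kb, and neighbours in this order lay within the larger of their SDs, except Prrx1 with Twist2 and Twist2 with Twist1. In ASPC_Pre (n = 2 batches) the order was Snai1 at 73.8 ± 40.1, Prrx1 at 57.7 ± 12.9, Snai2 at 44.3 ± 37.9, Twist2 at 17.4 ± 0.472, Twist1 at 16.5 ± 11.8, Zeb2 at 8.90 ± 1.99 and Zeb1 at 8.12 ± 5.41 CPM per kb. On average the SNAIL genes and Prrx1 were above the TWIST and ZEB genes in both. In RAW_Mock Zeb2 stood alone, at 6.84 ± 0.827 CPM per kb (n = 3 batches), with the next, Snai2, at 0.373 ± 0.326.

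In Live-seq the levels were of similar size, and the fitted differences had larger SEs. Prrx1 had 493.9, 291.6 and 407.6 CPM in the IBA sums (batches 7, 8_8 and 9_4) and 672.9 and 393.1 CPM in ASPC_Pre (8_8 and 9_4), with 0 counts in any RAW_Mock or RAW_LPS cell. It was at least 4579-fold higher in IBA than in RAW_Mock (log2 fold change 14.45, SE 1.38, edgeR adjusted p = 0.00866) and at least 4866-fold higher in ASPC_Pre (15.30, SE 1.44, adjusted p = 0.00888). Snai1 had 112.3, 126.1 and 172.8 CPM in IBA, and Twist2 27.7, 36.3 and 70.9 CPM. Snai2 differed between batches, with 126.7, 19.9 and 116.7 CPM in IBA and 6.24 and 84 CPM in ASPC_Pre. Zeb1 had 1.24, 13.2 and 84.95 CPM in IBA and 0 and 42.7 CPM in ASPC_Pre, so that in both it was highest in batch 9_4. The low sums rest on few counts: 12 of Zeb1 in IBA of batch 7, with 11 in 1 cell, and 25 of Snai2 in ASPC_Pre of 8_8, with 20 in 1 cell. Every member was counted in a smaller share of ASPC_Pre cells in 8_8 than in 9_4 (Snai1 in 27.8% against 81.4%).

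Prrx1 was the only member called in Live-seq, 1 of 7 in IBA against RAW_Mock (1.5% of 11666 genes were called higher and 0.917% lower) and 1 of 7 in ASPC_Pre against RAW_Mock (1.65% and 0.591%). Both calls were lost without batch 8_8 or without batch 9_4. Snai1, at a pooled ratio of 444.3 (interval 241.2 to 927.4) in IBA, had an adjusted p of 0.0683, and Twist2, at least 486.5-fold higher, of 0.108. Without the batch term 4 of 7 members were called in each of these comparisons, and DESeq2 called 4 in IBA and 3 in ASPC_Pre. Twist1, Twist2 and Zeb1, like Prrx1, had 0 counts in all Live-seq RAW cells, which allows up to 0.0924 CPM in RAW_Mock and 0.132 CPM in RAW_LPS at 3 counts.

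The share of cells in which a factor was counted differed by technique and by gene. In scRNA-seq IBA cells, Prrx1 was counted in 99.3% of cells, Twist2 and Zeb2 in 98.04%, Snai1 in 96.7%, Snai2 in 94.1%, Zeb1 in 77.1% and Twist1 in 62.1%. In 44 Live-seq IBA cells the shares were 88.6% for Prrx1, 65.9% for Snai1, 63.6% for Twist2, 59.1% for Snai2, 47.7% for Zeb2, 40.9% for Zeb1 and 25% for Twist1. With every cell thinned to 50000 counts, leaving out 6 shallower cells of all 1012, Prrx1 was counted in 99.3% of scRNA-seq and 86.4% of Live-seq IBA cells and Twist1 in 28.8% and 13.6%. Total counts per cell were alike, but the median number of genes counted was 9211 in scRNA-seq and 4626 in Live-seq IBA cells.

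All 7 members were counted in 71 scRNA-seq IBA cells (46.4%), 41 of 60 ASPC_Pre and 24 of 35 ASPC_Post cells, and in 3 of 44, 9 of 61 and 8 of 37 Live-seq cells. No RAW cell held more than 1 of the 6 members other than Zeb2. Among scRNA-seq RAW_Mock cells, 90.4% held none of these 6, and of RAW_LPS cells 85.2%. The median level over cells with a count was higher in Live-seq than in scRNA-seq for 5 of 7 members in IBA and for 4 in ASPC_Pre. For Prrx1 in IBA it was 412.2 CPM in Live-seq and 386.1 CPM in scRNA-seq, whereas for Twist1 in IBA it was 9.16 and 12.8 CPM and for Prrx1 in ASPC_Pre 342.3 and 516.2 CPM.

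**Figure D2:**
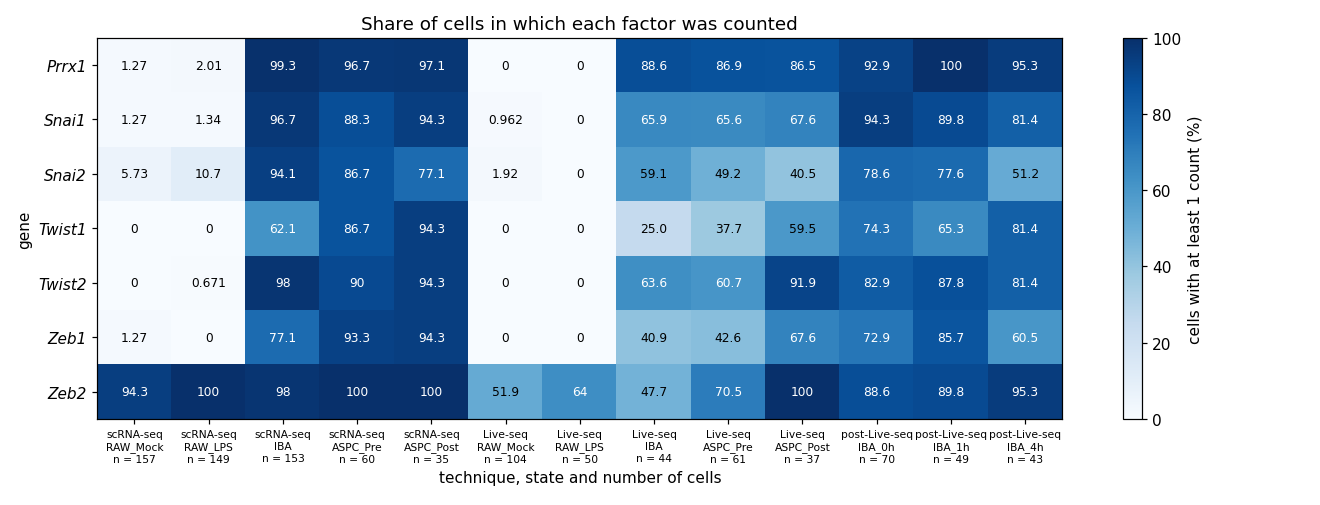
Each tile gives the percentage of cells with at least 1 count of a factor (rows) in each technique and state (columns, with the number of cells), and darker blue is a higher share. Only Zeb2 is dark in RAW columns, and Live-seq IBA and ASPC_Pre columns are lighter than their scRNA-seq counterparts for every factor.

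Zeb2 was the member that RAW cells held, and its level in RAW cells was compared between LPS and mock. In scRNA-seq it was counted in 94.3% of RAW_Mock and 100% of RAW_LPS cells. Levels were 127.8 CPM in RAW_Mock and 346.1 CPM in RAW_LPS in batch 8_8, 126.1 and 136.5 CPM in 9_1, and 155.5 and 392.9 CPM in scRNA. RAW_LPS was higher in 3 of 3 batches, and by more than 2-fold in 2 of them. The median over single cells was 94.05 and 317.5 CPM in 8_8, 99.7 and 108.8 CPM in 9_1, and 143.7 and 326.9 CPM in scRNA. The log2 fold change was 1.15 (SE 0.34, unadjusted edgeR p = 0.00757, adjusted p = 0.154), which did not pass, and over the 9 alternatives the adjusted p ran from 0.0233 with DESeq2, the only one to call it, to 0.618.

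None of the 7 members was called between RAW_LPS and RAW_Mock in scRNA-seq by edgeR, where 0.933% of genes were called higher and 0.313% lower. At an unadjusted p under 0.05 there was 1 member, Zeb2, which was also the 1 member that DESeq2 called. Snai1 had 3 counts in RAW_LPS and 20 in RAW_Mock, of which 1 cell held 19. Zeb1 had 0 and 8. Twist1 had 0 and 0, Twist2 1 and 0, and Prrx1 3 and 2, too few to be called in either direction. The members other than Zeb2 met the filter only in IBA or ASPC, so nothing is read from 0 of 7.

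In Live-seq, Zeb2 was counted in 54 RAW_Mock cells (51.9%) and 32 of 50 RAW_LPS cells (64%). The RAW_LPS sums had 192.98, 262.4, 246.6, 27.96 and 149.9 CPM in batches 5Reseq, 6, 7, 8_8 and 9_4, and the RAW_Mock sums 1026, 88.8, 132.3 and 46.5 CPM in batches 6, 7, 8_8 and 9_4. A single cell held 71.4% of the Zeb2 counts of the RAW_Mock sum of batch 6, which has 8 cells. RAW_LPS was higher in batches 7 and 9_4 and lower in 6 and 8_8. The log2 fold change was 0.08 (SE 0.92, adjusted p = 1.00). No member was called by edgeR (0% of genes in either direction), none had an unadjusted p under 0.05, and DESeq2 called 1, Snai2, on 22 counts in 2 RAW_Mock cells against 0 in RAW_LPS. Twist1, Twist2, Zeb1 and Prrx1 had 0 counts in both groups and could not be called.

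**Figure D3:**
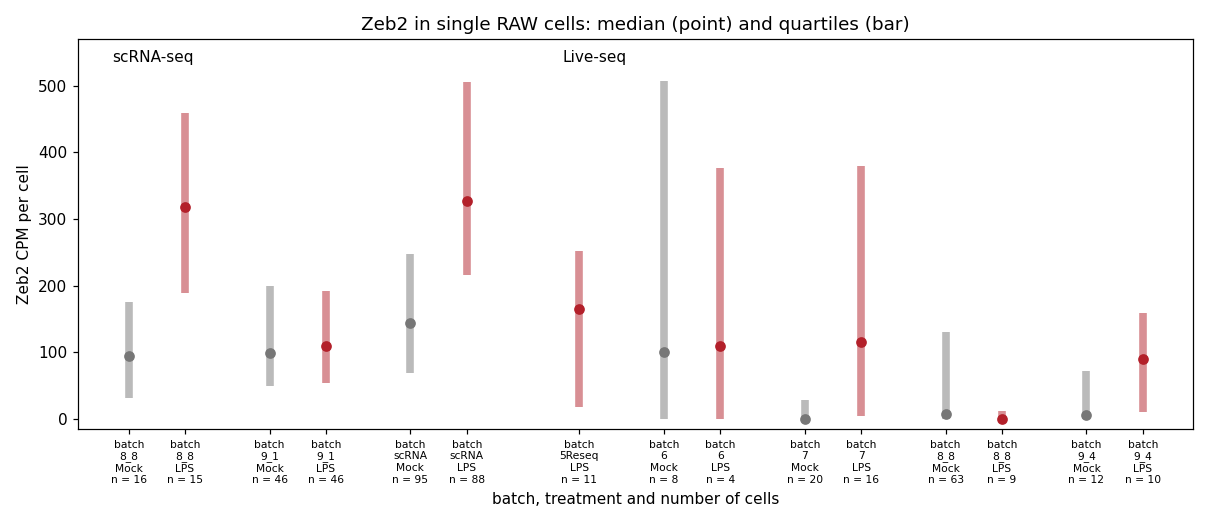
Zeb2 CPM per cell in RAW cells, by technique, batch and treatment, with the median as a point, the quartiles as a bar and the number of cells under each. In scRNA-seq the RAW_LPS medians of batches 8_8 and scRNA (317.5 and 326.9 CPM) lie above the upper quartiles of RAW_Mock, and that of 9_1 (108.8 CPM) lies close to the RAW_Mock median (99.7 CPM).

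Among the other members, Snai2 was the one most often counted in whole RAW cells. It had 67 counts in 9 RAW_Mock cells (5.73%, exact binomial interval 2.65 to 10.6%) and was counted in 16 RAW_LPS cells (10.7%, 6.26 to 16.9%). By batch it had 0, 1.21 and 1.05 CPM in RAW_Mock and 0, 1.61 and 2.34 CPM in RAW_LPS, none in either group of batch 8_8. Prrx1, with 29722 counts in whole IBA cells to 8972 of Snai2, had 2 and 3 counts in the whole RAW_Mock and RAW_LPS cells. Of the 9 RAW_Mock cells with Snai2, 0 held a count of any of the 10 mesenchymal markers, against 39.2% of those without it. In RAW_LPS these were 31.2% and 39.8%. The most marker counts in a single cell were 65 with Snai2 and 18 without it in RAW_LPS, and 0 and 25 in RAW_Mock. Where the Snai2 counts of RAW cells come from was not tested. The log2 fold change between RAW_LPS and RAW_Mock was 0.82 (SE 0.85, adjusted p = 0.743).

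The next comparison was between the mesenchymal kinds, ASPC_Pre against IBA, which differ in sex, in fat depot and in being primary or immortalized, so that these cannot be told apart. In scRNA-seq, Zeb2 and Prrx1 were called higher in ASPC_Pre, 2 of 7 members, with 7.60% of genes called higher and 3.77% lower. Within batches, Prrx1 had 740 against 367.1 CPM in 8_8 and 537.4 against 345.5 CPM in 9_1 (log2 fold change 1.12, SE 0.30, edgeR adjusted p = 0.0435). Zeb2 had 149.6 against 94.6 CPM and 205.6 against 67.03 CPM (1.44, SE 0.39, adjusted p = 0.0439). Both genes were higher in ASPC_Pre in 2 of 2 shared batches. Both calls were lost without the batch term and without any 1 of the 3 batches, with adjusted p up to 0.189 for Prrx1 and 0.254 for Zeb2 over the alternatives. The Prrx1 call was also lost without the filter on low counts and with negative-control and ribosomal genes kept. It held in 3 of 9 alternatives and that of Zeb2 in 5.

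Twist1 was higher in both shared batches as well, at 40.4 against 16.7 CPM and 13.3 against 6.61 CPM, but did not pass (1.43, SE 0.63, adjusted p = 0.205). Snai2 went opposite ways, 143.7 against 49.2 CPM in 8_8 and 35.4 against 83.3 CPM in 9_1, and so did Snai1, 165.6 against 149.3 CPM and 73.7 against 180.3 CPM. Snai1 (-0.03, SE 0.72), Snai2 (0.74, SE 0.90), Twist2 (-0.15, SE 0.44) and Zeb1 (1.21, SE 1.38) had adjusted p from 0.606 to 0.987. In Live-seq no member was called between ASPC_Pre and IBA by edgeR or DESeq2 and none had an unadjusted p under 0.05, with 0.00857% of genes called in each direction and SEs from 0.91 to 2.65 on the log2 scale.

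Adipogenic induction for 2 days was compared within the 1 batch of each technique that held both states, 9_1 for scRNA-seq (35 ASPC_Post and 44 ASPC_Pre cells) and 9_4 for Live-seq (37 and 43 cells). With 1 batch there is no test, and the intervals cover counting error alone. The TWIST genes and Zeb2 were at higher levels after induction in both techniques, and Prrx1 and Snai2 at lower ones.

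Twist1 had 46.5 CPM after and 13.3 CPM before induction in scRNA-seq (log2 ratio 1.81, interval 1.62 to 2.00) and 21.1 and 11.8 CPM in Live-seq (0.85, 0.58 to 1.11). The share of cells with Twist1 was 94.3% and 84.1% in scRNA-seq and 59.5% and 46.5% in Live-seq. Twist2 had 103.2 and 54.1 CPM in scRNA-seq (0.93, 0.83 to 1.04) and 101.04 and 57.1 CPM in Live-seq (0.82, 0.70 to 0.94), the closest match between techniques. Zeb2 had 457.9 and 205.6 CPM in scRNA-seq (1.16, 1.10 to 1.21) and 134.5 and 103.9 CPM in Live-seq (0.37, 0.28 to 0.47).

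Prrx1 had 439.6 and 537.4 CPM in scRNA-seq (-0.29, interval -0.33 to -0.25) and 279.3 and 393.1 CPM in Live-seq (-0.49, -0.55 to -0.44). Snai2 had 28.5 and 35.4 CPM (-0.31) and 58.1 and 84 CPM (-0.53). Snai1 was slightly higher in scRNA-seq (82.7 and 73.7 CPM, 0.17) and lower in Live-seq (79.2 and 102.1 CPM, -0.37). Zeb1 was lower in scRNA-seq (95.5 and 122.6 CPM, -0.36) and higher in Live-seq (74.5 and 42.7 CPM, 0.80). For these last genes the sign differed between the scRNA-seq ratio (batch 9_1) and the Live-seq ratio (batch 9_4). Technique and batch cannot be told apart here, and the difference was not tested.

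By a fold of 2 or more, Twist1 (3.50) and Zeb2 (2.23) were higher in scRNA-seq and none lower, 2 of 7 members, where 12.8% of 8828 genes were at least 2-fold higher and 10.2% lower. In Live-seq 0 of 7 members passed that fold, where 12% of 8078 genes were higher and 15.7% lower.

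By the labels, the same ASPC was sampled before and after induction in 9 cells, and these pairs are part of the Live-seq values. The paper reports fewer such pairs, matched by their barcodes, so not every labelled pair is known to be the same cell. Zeb2 was counted both times in 8 of 9 cells and Twist2 and Prrx1 in 6. Snai1 was counted only before induction in 5 cells and only after in 1, and Snai2 likewise in 5 and 1. Twist2 was counted only before in 1 cell and only after in 2, and Zeb1 in 1 and 3. Twist1 was counted both times in 3 cells, only before in 2, only after in 1 and neither time in 3. This split does not follow its higher level over all cells after induction. Prrx1 was counted only before in 3 cells and only after in 0. In the 4 RAW cells sampled before and after LPS, Zeb2 was counted both times in 1, only before in 1 and only after in 2, and no other member was counted.

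**Figure D4:**
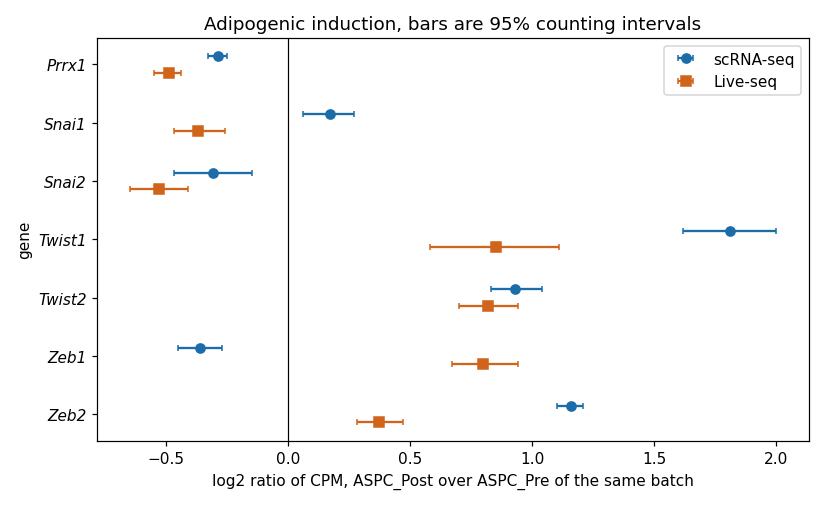
Log2 ratio of CPM of ASPC_Post over ASPC_Pre within the 1 batch of each technique, with 95% counting intervals as bars. Twist1, Twist2 and Zeb2 lie right of 0 in both techniques, Prrx1 and Snai2 left of it, and the techniques fall on opposite sides for Snai1 and Zeb1.

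The last comparison asked whether drawing cytoplasm from an IBA cell was followed by other levels of these factors. It rests on batch 8_1 alone, and both times share the IBA_0h cells as reference (70 cells, against 49 at 1 h and 43 at 4 h), so it has no test. Snai1 was lower at both times and Snai2 at 4 h, and the other 5 members stayed within a fold of 2 at both. Among the scRNA-seq batches of IBA cells, Snai1 ran from 96.8 to 180.3 CPM and Snai2 from 49.2 to 189.7 CPM. The paper compared the same groups and reports few significantly differentially expressed genes, no separate clusters by condition and no specifically enriched processes. It proposes that sampling induces no major expression change. The ratios here have no test, and their measure and threshold differ from those of its calls.

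Snai1 had 121 CPM in IBA_0h, 58.5 CPM in IBA_1h and 48.1 CPM in IBA_4h, log2 ratios of -1.05 (interval -1.14 to -0.95) and -1.33 (-1.45 to -1.22). Its median over single cells was 108.7, 37.01 and 27.2 CPM, so that the lower level was seen in the middle of the distribution too. The share of cells with Snai1 was 94.3%, 89.8% and 81.4%. Snai2 had 52.8, 75.8 and 19.5 CPM, higher at 1 h (0.52) and lower at 4 h (-1.44, -1.62 to -1.26), with medians over cells of 26.7, 30.2 and 1.98 CPM and shares of 78.6%, 77.6% and 51.2%.

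Twist1 had 26.5, 13.9 and 24.4 CPM, lower at 1 h (-0.93) and near IBA_0h at 4 h (-0.12, -0.31 to 0.06). Twist2 had 57.5, 50.3 and 37.2 CPM and Zeb1 34.1, 40.7 and 20.4 CPM. Zeb2, at 108.3, 97.2 and 97.7 CPM, and Prrx1, at 158.7, 149.9 and 177.7 CPM, differed least over both times. At 1 h, 1 of 7 members was at least 2-fold lower (Snai1, 2.07-fold) and none higher, where 3.30% of 8444 genes were lower and 1.78% higher. At 4 h, 2 of 7 were lower (Snai1, 2.52-fold, and Snai2, 2.71-fold) and none higher, where 4.33% of 8406 genes were lower and 2.07% higher. The mesenchymal markers took 0.261%, 0.285% and 0.288% of counts at 0, 1 and 4 h, and the median counts kept per cell were 349194, 437802 and 367016.

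**Figure D5:**
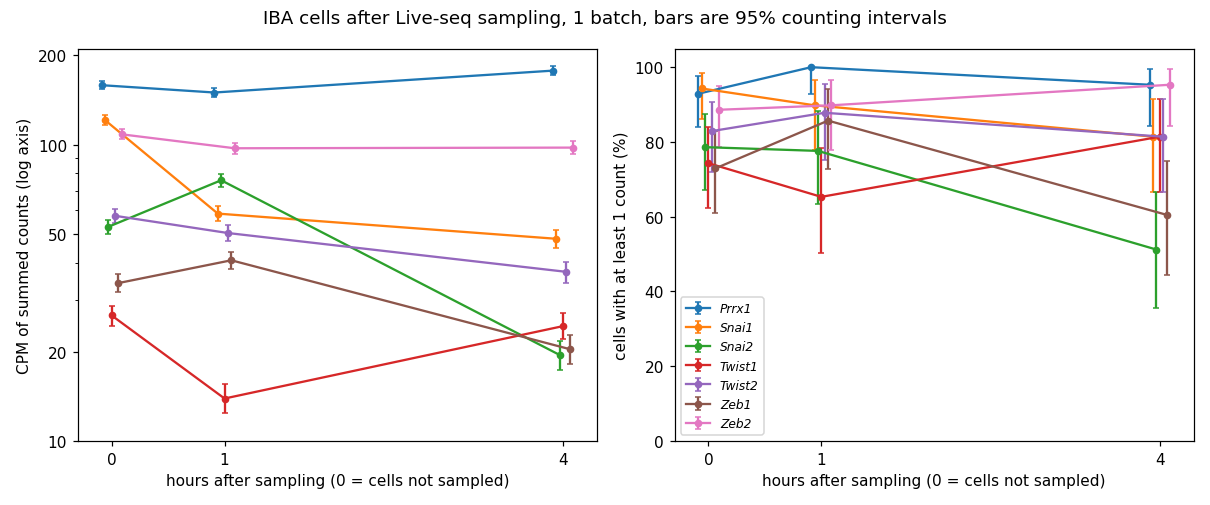
Left, CPM of summed counts (log axis), and right, percentage of cells with at least 1 count, for each factor in IBA cells not sampled (0 h) and 1 h and 4 h after sampling, with 95% counting intervals. The Snai1 line goes from 121 to 48.1 CPM and the Snai2 line ends at 19.5 CPM, and the lines of Zeb2 and Prrx1 are nearly flat.

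The factors work with other proteins, and lists of such genes were read in the same tests. Of 22 other transcription factors of mesenchyme, 15 were tested in scRNA-seq. In IBA against RAW_Mock, 11 were called higher, where 22% of all genes tested were. The median log2 fold change of the list was 10.31 (7.41 with genes at 0 counts at their floor) beside 0.21 over all genes. Sox9, a cartilage and progenitor factor, had 210.1 ± 97.5 CPM in IBA (SD, n = 3 batches) and 2 counts in RAW_Mock. Prrx2, the close relative of Prrx1, had 12.9 ± 4.32 CPM and no RAW_Mock count (at least 310.6-fold higher, adjusted p = 0.00182), and Msx1 14.8 ± 7.06 CPM and none. In ASPC_Pre 11 of 15 were called higher and 0 lower, Prrx2 among them at 32.0 ± 20.1 CPM (n = 2 batches). Between ASPC_Pre and IBA 0 of 15 were called by edgeR, 5 had an unadjusted p under 0.05, and DESeq2 called 2.

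Calls among partners and regulators stand beside the 22% of all genes called higher and 12.1% lower in IBA against RAW_Mock, and 27% and 13% in ASPC_Pre, and with 3 to 8 genes a list nothing particular to these lists is read from them. None of the 3 E proteins (Tcf3, Tcf4, Tcf12), the dimer partners of TWIST, was called by edgeR or DESeq2 in IBA or ASPC_Pre against RAW_Mock, with 1 at an unadjusted p under 0.05 in IBA and 0 in ASPC_Pre. Of 8 corepressors that SNAIL or ZEB proteins recruit, Ajuba was called higher in IBA (57.9 ± 18.3 against 0.204 ± 0.353 CPM, SD, n = 3 batches each, adjusted p = 0.00240) and in ASPC_Pre. Ctbp2, a corepressor known from ZEB proteins, was called lower in both, at 22.4 ± 8.94 CPM in IBA against 59.9 ± 15.7 CPM in RAW_Mock (log2 fold change -1.38, SE 0.30). Sin3a was also called lower in ASPC_Pre (-1.10, SE 0.28). The medians of this list were 0.37 in IBA and -0.05 in ASPC_Pre, beside 0.21 and 0.26 over all genes.

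Of 6 genes that act on the stability of SNAIL proteins, the kinase gene Gsk3b was called higher in both IBA (163.2 ± 37.7 against 71.1 ± 16.1 CPM, adjusted p = 0.00299) and ASPC_Pre (177.1 ± 43.5 CPM, n = 2 batches). Fbxl14, a ubiquitin ligase subunit, was called lower in both (-1.22, SE 0.33, and -1.18, SE 0.39). The deubiquitinase gene Usp9x was called higher in IBA (1.10, SE 0.33) and Fbxo11 in ASPC_Pre (1.15, SE 0.28). None of the 6 was called between ASPC_Pre and IBA by edgeR or DESeq2, with 1 at an unadjusted p under 0.05.

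Genes that SNAIL and ZEB proteins are known to repress, epithelial genes such as Cdh1 and Epcam, were mostly too low to test, with 16 of 18 below the filter. Of the other 2, the keratin gene Krt19 had 0 counts in RAW_Mock, 3.90 ± 2.81 CPM in IBA (n = 3 batches) and 99.1 ± 89.2 CPM in ASPC_Pre (n = 2 batches), and was called higher in both and in ASPC_Pre against IBA (log2 fold change 4.12, SE 0.75, adjusted p = 0.0332). Krt19 is itself 1 of the 3 mesothelial markers in the table. Their summed share of 0.00365% to 0.0162% of ASPC_Pre counts includes it and is no separate value, and Upk3b, another of the 3, was at 0 in IBA. Esrp2, an epithelial splicing factor gene, was called higher in ASPC_Pre (2.44 ± 2.42 against 0.295 ± 0.383 CPM, adjusted p = 0.0426).

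Of 12 mesenchymal effector genes (matrix, cadherins, cytoskeleton), 11 were called higher in IBA and 12 in ASPC_Pre against RAW_Mock, and 0 lower, with medians of 9.32 and 12.52. Fbn1, a matrix fibrillin gene, was at least 3500-fold higher in IBA and Tnc, a matrix tenascin gene, at least 2290-fold. In ASPC_Pre against IBA 5 of 12 were called higher, among them Cdh11, a mesenchymal cadherin gene (158.2 ± 15.9 against 24.6 ± 11.4 CPM, log2 fold change 3.18, SE 0.57, adjusted p = 0.0122). Between RAW_LPS and RAW_Mock the integrin gene Itga5 was the only one of the 12 called (207.03 ± 84.1 against 81.9 ± 27.9 CPM, n = 3 batches each, adjusted p = 0.0356). In Live-seq 6 of 12 effectors were called higher in IBA and in ASPC_Pre against RAW_Mock, and none of the other mesenchymal factors, E proteins, corepressors, turnover or epithelial genes was called by edgeR. At an unadjusted p under 0.05 there were 7 of 14 other mesenchymal factors in IBA and 8 in ASPC_Pre, and DESeq2 called 5 and 3.

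As a description of likeness, Pearson correlations of log2 CPM over the 12 scRNA-seq sums were computed between the members and all other tested genes. The sums share batches and fall into macrophage and mesenchymal cells, so most of each value is that contrast. Among the 6 members without Zeb2, r ran from 0.882 (Snai2 with Zeb1) to 0.991 (Prrx1 with Snai1 and with Twist2), whereas Zeb2 had r from -0.275 to -0.0172 with them. The genes nearest to Prrx1 were Hoxc9 (r = 0.9995), Epb41l3 and Cttn, and those nearest to Twist2 were Tjp1 (0.9991), Tspan12 and Cdc42bpa. Nearest were Ralgps2 (0.9957) to Snai1, Armcx2 (0.9863) to Snai2, Ptprn (0.9940) to Twist1 and Shisa4 (0.9935) to Zeb1. Zeb2 had no comparably close gene, the nearest being Txnrd1 (0.8921), Susd6 and Slc25a37.

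Across single cells of 1 batch and state, pairs of members had correlations of both signs. Over 9 groups of at least 35 cells from IBA and ASPC, the median Spearman correlation of the 21 pairs ran from -0.00593 to 0.179. The lowest single values were -0.538 for Zeb1 with Prrx1 in ASPC_Pre of batch 9_1 and -0.502 for Twist2 with Zeb2 in IBA of 9_1, and the highest was 0.564 for Snai1 with Prrx1 in ASPC_Post. Snai1 with Snai2 ranged from -0.40 in IBA_0h to 0.30 in ASPC_Pre of 9_1 in whole cells. Cells of a batch share their libraries' depth and many zeros, and these values are given without a test.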

How the data were processed

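Counts of 1012 Smart-seq2 single-cell libraries were analysed as deposited. Per the labels and methods, the authors aligned reads to mm10 (GRCm38) with STAR 2.6.1c, after bcl2fastq 2.19.1, used HTSeq, unstranded, to count reads per Ensembl gene, merged lanes, and deposited raw counts of cells that had passed their filters. The Live-seq libraries here are slightly more than the paper reports as passing, with the surplus in RAW_Mock. Depth per library is given above.

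Dropped were 20 genes from negative controls and 92 ribosomal protein genes. The remaining counts were summed per batch and state (at least 3 cells), 12 sums in scRNA-seq and 15 in Live-seq. A gene was tested with at least 2 counts in 15% of the cells of a scRNA-seq state and after filterByExpr (minimum count 2, minimum proportion 0.05). Tests were edgeR 4.0.16 glmQLFit (legacy fit) and glmQLFTest, TMM, state plus batch, prior count 0.125, Benjamini-Hochberg over all tested genes, in R 4.3.3. Alternatives were DESeq2 1.42.0, RLE size factors, the edgeR 4 fit, no filter, the dropped genes kept, no batch term and each batch left out. Ratios without a test were also taken as means over cells and without the highest cell, and shares of cells at 2 counts or thinned. SE is the fold change over the root of F. Figures used matplotlib 3.10.9. The script was tested on simulated data.

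Batch pairs the sums, since the labels give a shared batch. Same-batch sums deviated together in scRNA-seq (median r 0.267, 0.0914 to 0.526, over 15 pairs) and weakly in Live-seq (0.0266, -0.0202 to 0.212, over 16). The Live-seq RAW_Mock cell of batch 5Reseq, alone in its group, entered no sum.

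Named were the 7 members, up to 3 called genes of a list with the largest change and the 3 genes nearest to each member. The members and lists were chosen with earlier results of these data known. Of 30452 features 30340 had a symbol in GENCODE vM21. The result of 1 listed gene is not reported here.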

Additional observations from a re-analysis of the deposited data

Results flagged for a closer look

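In Live-seq RAW_Mock, Dixon's test singled out 1 of 4 sums for 3 members, of 4 groups tested, a test that chance passes in about 1 group in 20. Zeb2 had 1026 CPM in batch 6 against 46.5 to 132.3 CPM in the others, with 71.4% of its counts in 1 of 8 cells. Snai1 had 0.553 CPM and Snai2 1.22 CPM in batch 8_8, on 10 counts in 1 cell and 22 counts in 2 cells, against 0 in the others. With the others all at 0 the test passes for any value above 0, and the upper limits of the 0 counts in batches 6 and 9_4 (2.36 and 0.825 CPM) lie above the Snai1 value. Batch 8_8 holds 63 RAW_Mock cells, and the other 3 sums 8, 20 and 12.

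Some ratios lay on opposite sides of 0, a difference that was not tested since each comes from 1 batch. On adipogenic induction, the log2 ratio in Live-seq minus that in scRNA-seq was -0.54 for Snai1 and 1.16 for Zeb1. After sampling, the log2 ratio to IBA_0h at 4 h minus that at 1 h was -1.96 for Snai2, -1.0 for Zeb1 and 0.24 for Prrx1.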

How the results depend on the processing

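Over the refits of single members for which a fold is given (in RAW_LPS against RAW_Mock only those above the floor of 3 counts), 88.96% kept direction and side of the threshold, 15 lost a call, 22 gained one and 17 turned direction. The 6 calls of IBA against RAW_Mock in scRNA-seq kept both in all 9 alternatives. Limits are few batches (2 or 3 per mesenchymal state), single batches for induction and for sampling, and Live-seq sums of as few as 4 cells, in which 1 cell can hold most counts. Where values changed below, the cause was not tested.

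Without the batch term (no replicate block), members called were 0 in ASPC_Pre against IBA in scRNA-seq and 4 each in IBA and ASPC_Pre against RAW_Mock in Live-seq. Of all genes, 6.78% (against 11.4% with it) were then called in ASPC_Pre against IBA and 0.261% (against 1.25%) in RAW_LPS against RAW_Mock in scRNA-seq. In Live-seq the shares were 6.27% (2.42% with it) for IBA and 5.97% (2.24%) for ASPC_Pre against RAW_Mock, and 0.0943% (0.0171%) for ASPC_Pre against IBA. The edgeR 4 fit called 18.9% (ASPC_Pre against IBA) and 3.22% (RAW_LPS) in scRNA-seq, and in Live-seq 8.31% for IBA with 4 members, 7.58% for ASPC_Pre with 3 members, 0.0771% for ASPC_Pre against IBA and 0.0429% for RAW_LPS. DESeq2 called 5.31% and 1 member for RAW_LPS in scRNA-seq, and for the same 4 Live-seq comparisons 11.6%, 10.9%, 1.70% and 3.88% with 4, 3, 0 and 1 members. Without the filter on low counts, 1 member was called in ASPC_Pre against IBA in scRNA-seq. RAW_LPS then had 0.977% of 28251 genes, more genes than with the filter, and Live-seq had 1.76% of 24157 and 2 members (IBA), 0.0538% (ASPC_Pre against IBA) and 0.00414% (RAW_LPS). With negative-control and ribosomal genes kept, ASPC_Pre against IBA had 1 member.

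Leaving out 1 batch at a time gave in scRNA-seq 22.4% (without batch scRNA) to 33.7% for IBA against RAW_Mock with 6 members each time, 23.7% (without 9_1) to 41.2% for ASPC_Pre with 5 to 7 members, 0.381% (without 9_1) to 11.7% for ASPC_Pre against IBA with 0 members each time, and 0% (without 8_8) to 0.179% for RAW_LPS. In Live-seq it gave 0.12% (without 8_8) to 3.15% and 0 to 2 members for IBA, 0.00857% (without 8_8) to 3.40% and 0 to 1 members for ASPC_Pre, and 0% (without 8_8 or 9_4) to 0.0257% for ASPC_Pre against IBA.

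The log2 fold changes that turned were of members not called. In ASPC_Pre against IBA (scRNA-seq), Snai2 was -0.10 without the batch term and Snai1 0.02 with DESeq2, and leaving out a batch gave -1.27 (without 8_8) to 2.03 (9_1) for Snai2, -0.60 (9_1) to 0.21 (8_8) for Twist2, -0.54 (8_8) to 0.54 (9_1) for Snai1 and -0.92 (9_1) to 2.03 (8_8) for Zeb1. In RAW_LPS against RAW_Mock (scRNA-seq) Zeb1 ran from -5.81 (without batch scRNA) to 0.00 (8_8) and Snai1 from -2.86 (8_8) to 0.09 (scRNA). In Live-seq without the batch term, Zeb2 was -1.12 in IBA, -1.44 in ASPC_Pre and -0.91 in RAW_LPS against RAW_Mock. By batch left out, Zeb2 in RAW_LPS ran from -0.69 (9_4), with -0.66 without 7, to 0.86 (6), and Snai1 from -3.48 (7) to 0.01 (8_8). Zeb1 ran from -0.69 (9_4) to 9.85 (8_8) in ASPC_Pre against RAW_Mock and from -9.01 (9_4) to 0.02 (8_8) in ASPC_Pre against IBA, where Zeb2 ran from -0.47 (7) to 0.66 (8_8).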
